A study of Mus musculus with 5 samples.

Results

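Where the genome of mouse embryonic stem cells is rich or poor in 5-methylcytosine (5mC) was examined by setting a 5mC antibody pulldown, MeDIP-seq, against an input library. These are 2 of the 5 libraries of the series, chosen by their labels, with 1 library on each side. Reads of chromosomes 1 to 19 that carry a 0 in column 4 of the deposited read lists were used, which left 10260899 MeDIP reads and 16332177 input reads. The sources used here do not explain column 4, which was 0 in every MeDIP read and 1 in 8.38% of the input reads. Each read counted once, at its midpoint, in bins of 1, 10 and 100 kb of the mm9 genome.

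The MeDIP library came from E14 gene-trap clones (SIGTR library) at passages 11 to 14. The labels do not say how many clones were used or which genes the traps hit. The input came from TNG-A, an E14 line with an EGFP reporter at the Nanog locus, and was made from chromatin rather than from purified genomic DNA. Both lines were grown without feeders in 10% fetal calf serum with leukaemia inhibitory factor. For MeDIP, sonicated genomic DNA received sequencing adaptors, was denatured and was incubated overnight with 2 µg of a Diagenode anti-5mC antibody. Line, DNA preparation and pulldown all differ between the libraries, so their contributions to a difference cannot be told apart. With 1 library per side no test between conditions was possible. Intervals are exact 95% intervals and cover counting error alone, as the reads carry no molecular identifiers and cannot be taken as independent molecules. Every fold of another library is also taken over this 1 input, so folds of different libraries share its errors and are given side by side, as values.

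5mC is placed on cytosines by DNA methyltransferases, in mammals mostly where a cytosine is followed by a guanine (CpG). A CpG reads the same on the opposite strand, and maintenance methylation copies the mark from the old strand to the new one. Embryonic stem cells also carry some methylation outside CpG. Most CpGs of the genome are methylated, whereas CpG islands at promoters mostly are not. The antibody needs single-stranded DNA and recovers fragments that hold several 5mC, so a pulldown reflects the density of methylated cytosines in a fragment rather than the methylated share of each site.

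MeDIP reads were spread less evenly than input reads at every bin size. The densest 10% of 10 kb bins held 27.8% of MeDIP reads and 17.3% of input reads, each library ranked by its own reads. At 1 kb these shares were 41.5% and 21.7%, and at 100 kb 22.7% and 15.2%. Put the other way, 50% of the MeDIP reads fell in 23.0% of the 10 kb bins, while the same share of input reads took 36.4% of them. At 1 kb, 17.1% of bins with a read in either library had no MeDIP read, against 1.27% without an input read. After a random thinning of the input to the MeDIP depth, its densest 10% of 10 kb bins held 17.5% of the reads that remained.

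**Figure D1:**
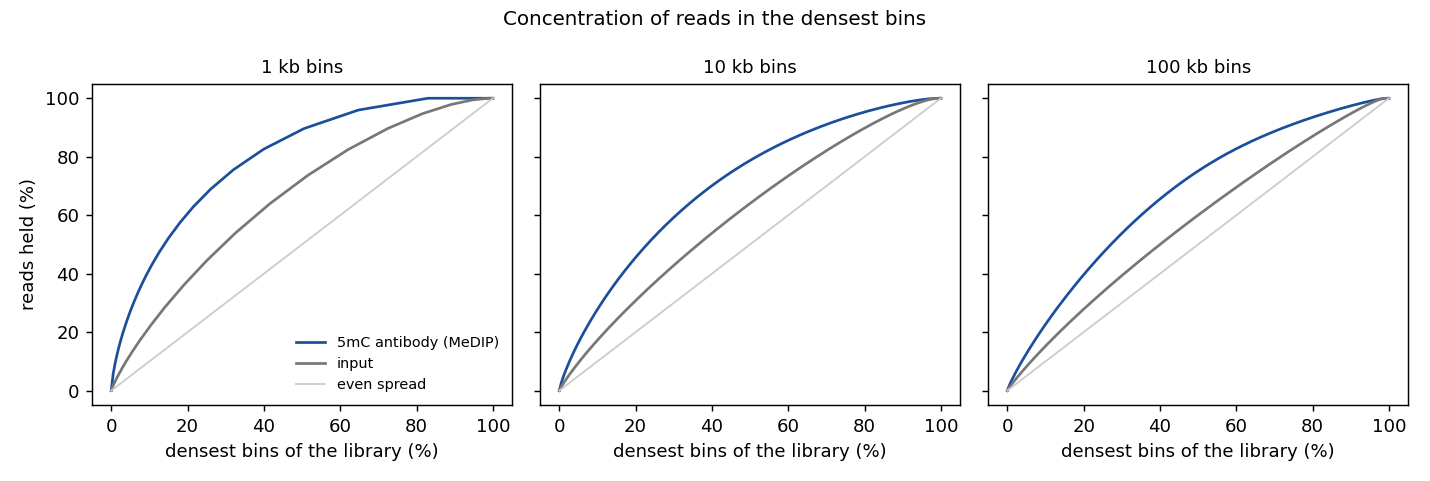
Share of reads (y axis, %) held by the densest bins of each library (x axis, %) for 1, 10 and 100 kb bins. MeDIP lies above input in each panel, and at the densest 10% of bins it holds 41.5%, 27.8% and 22.7% of its reads, against 21.7%, 17.3% and 15.2% for input.

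The ratio of a bin was (RPM + 0.5)/(input RPM + 0.5), where RPM is the number of reads per 1000000 autosomal reads kept. The median ratio was 0.812 over 231061 bins of 10 kb with at least 20 input reads and 0.842 over 23492 bins of 100 kb with at least 200. The typical bin thus lay below the input level at both sizes. At 10 kb the 1st and 99th percentiles were 0.208 and 4.19, and at 100 kb they were 0.280 and 3.28. The distribution of log2 ratios at 100 kb was broad and flat-topped, with its quartiles at -0.92 and 0.43. Across 10 kb bins the SD of log2 RPM was 0.95 in MeDIP and 0.45 in input, and that of the log2 ratio was 0.98.

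**Figure D2:**
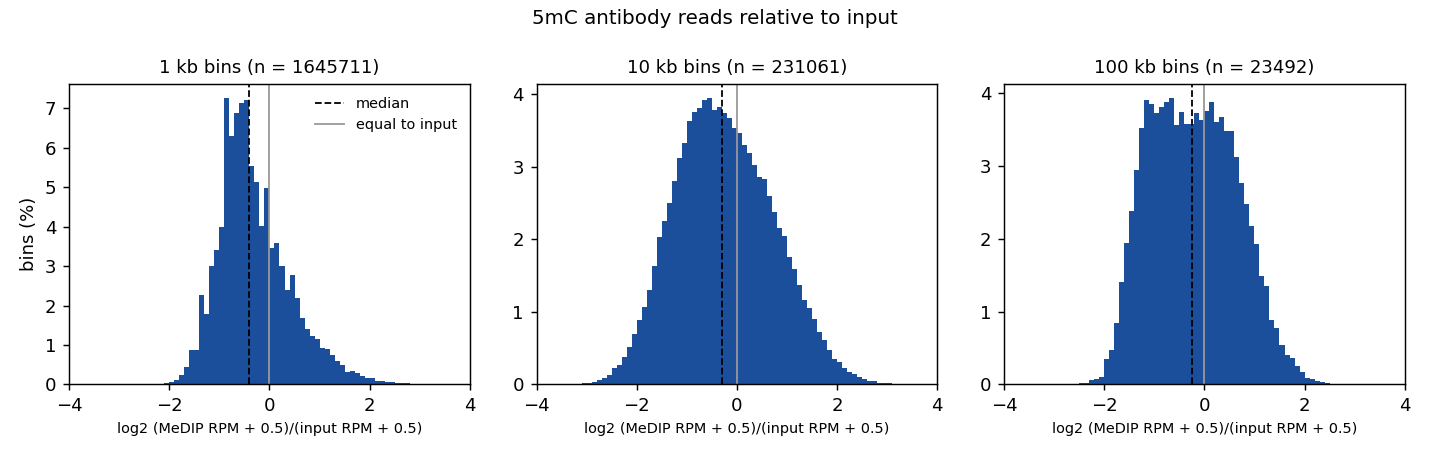
Distribution of log2 ratios of MeDIP to input (x axis) as the share of bins (y axis, %) for 1 kb bins with at least 5 input reads, 10 kb bins and 100 kb bins. The dashed line is the median, at -0.42, -0.30 and -0.25, and lies below the grey line of equal RPM in each panel.

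At the finest scale, 61944 of 2277932 bins of 1 kb (2.72%) were at 3-fold or more over input. They covered 61.9 Mb and held 17.2% of MeDIP reads, against 1.69% of input reads. Their median was 25 MeDIP reads and 4 input reads, while all 1 kb bins with a read had a median of 3 and 7. The input count of these bins was thus below typical, and 26583 of them held at least 5 input reads. The count rested on the settings: it was 207272 with a pseudocount of 0.1 RPM and 93682 with the median bin set to 1. High bins were short: 86.7% of the 53032 runs of adjacent high bins were a single bin, and the longest run was 13 bins.

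Isolated high bins were looked at together with their flanks. Around 12189 high 1 kb bins (19.7% of them) with at least 5 input reads and no other high bin within 5 kb, MeDIP averaged 3.25 RPM per kb in the bin. It was 0.801 at 500 to 1000 bp from the centre and 0.546 at 4 to 5 kb. Input was 0.427 in the bin and 0.464 at 4 to 5 kb, and MeDIP averaged 0.374 over all 1 kb bins that were not high. Flanks with another high bin were left out by the choice of bins, which used the same MeDIP reads. A MeDIP peak confined to the bin follows in part from that choice. The MeDIP signal in the bin was 5.95 times that of the far flank. The 5hmC antibody library, which the choice of bins did not use, peaked at the same place, at 3.52 times its far flank. The capture with a methyl-CpG binding domain, MethylCap, was at 3.197 times its flank in the 600 mM NaCl eluate and 3.06 times in the 800 mM eluate.

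**Figure D3:**
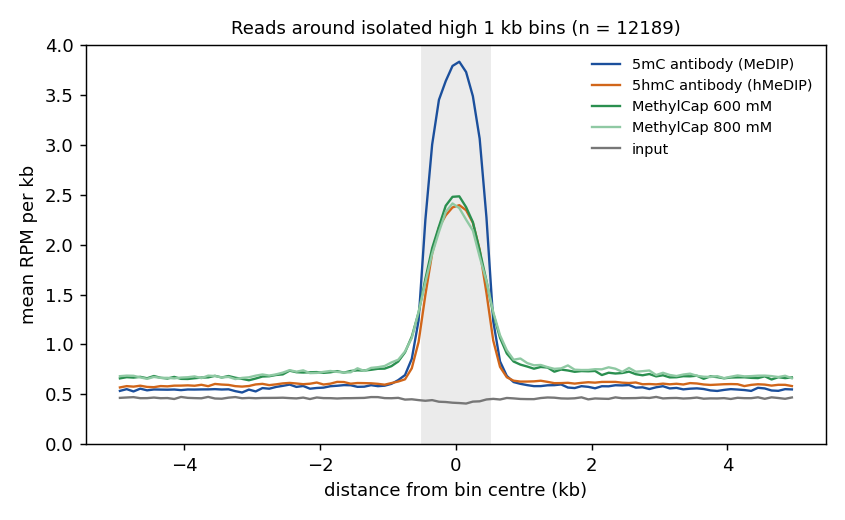
Mean RPM per kb (y axis) against the distance from the centre of 12189 isolated high 1 kb bins (x axis, kb), in steps of 100 bp; the grey band is the bin by which they were chosen. All 4 enriched libraries peak in the band, while input is slightly lower in the bin (0.427) than at 4 to 5 kb (0.464).

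The strand of the reads, which played no part in the choice of bins, was far from even at these sites. The strand counts were looked at after the bins had been seen. For each high 1 kb bin with at least 5 input reads, reads of the bin and 500 bp on each side were counted by strand. All 26583 such windows held 20 or more MeDIP reads. In 17705 of them (66.6%) the exact 95% interval of the + strand share excluded 50%, and in 9544 (35.9%) at least 80% of reads were on one strand. The favoured strand was + in 49.1% of the skewed windows. Over the same bins, the interval excluded 50% in 2.73% of 2634 windows with 20 or more input reads, in 3.30% of 20000 windows of the 600 mM MethylCap eluate and in 1.89% of 15205 windows of the 800 mM eluate. An even library would give 5% or less with such intervals. Among windows of 20 to 40 reads (median 33 in MeDIP and 22 in input), the shares were 60.4% in MeDIP, 43.0% in the 5hmC antibody library, 2.77% in input, and 2.52% and 1.71% in the 600 mM and 800 mM eluates.

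The 5hmC antibody, the other library made with denatured DNA, was also skewed, at many of the same sites and there mostly to the same side. In 63.3% of 23601 windows with 20 or more hMeDIP reads its interval excluded 50%. Of the 16140 of these windows that were skewed in MeDIP, 12549 (77.8%) were skewed in hMeDIP too. Where both antibody libraries were skewed, the favoured strand was the same in 12478 of 12549 windows (99.4%). Where MeDIP and the 600 mM eluate were both skewed, the strand was the same in 239 of 436 (54.8%). The counts by strand use no input reads, although the input entered the choice of bins. Recognition of the same bases by both antibodies was not tested.

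**Figure D4:**
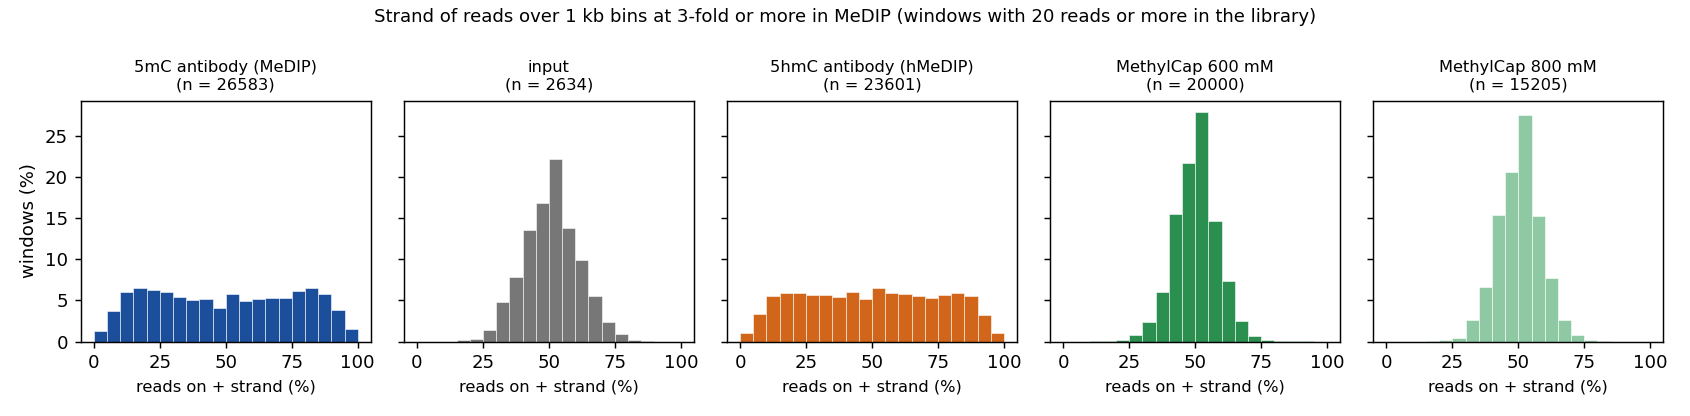
Share of windows (y axis, %) by the percentage of reads on the + strand (x axis) over 1 kb bins at 3-fold or more in MeDIP, 1 panel per library, windows with 20 reads or more in that library. Input and both MethylCap eluates form a peak around 50%, whereas each 5-point step from 10% to 90% holds 4.09% to 6.57% of MeDIP windows, and hMeDIP is similarly broad.

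Each of the 10 bins with the highest ratio at 1 kb showed the skew. Their ratios of 18.3 to 30.1 chose them and are a description. The first, chr11:116607001-116608000, held 244 MeDIP reads and 5 input reads (30.1-fold; ratio without pseudocount 77.7, interval 32.8 to 241.4). In its window 39 MeDIP reads lay on the + strand and 257 on the - strand, hMeDIP had 78 and 303, and the 600 mM eluate had 80 and 88. The + strand was instead favoured at chr17:85013001-85014000, with 374 + and 66 - MeDIP reads, 458 and 39 hMeDIP reads, and 81 and 71 reads of the 600 mM eluate. The least skewed was chr5:148019001-148020000, with 130 and 172 MeDIP reads. That bin was also the one with the lowest hMeDIP ratio of the 10 (4.14) and the highest ratio in the 600 mM eluate (36.4). In all 10 windows MeDIP and hMeDIP favoured the same strand, and in none did the interval of input or of either eluate exclude 50%.

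The most one-sided bins were almost free of reads on the other strand. Among 225 high 1 kb bins with at least 100 MeDIP reads, chr2:155068001-155069000 had 135 MeDIP reads on the + strand and 1 on the - strand, while its 7 and 5 input reads and 25 and 26 reads of the 600 mM eluate were balanced. At chr11:5971001-5972000 there were 2 + and 135 - MeDIP reads and 4 + and 322 - hMeDIP reads, and the eluates held 4 reads at 600 mM and 0 at 800 mM in the window. The latter bin had a MeDIP ratio of 13.5 and a 600 mM ratio of 0.698, whereas chr2:155068001-155069000 was at 11.7 and 4.27. At 10 kb the extreme was chr14:27560001-27570000, with 15 + and 427 - MeDIP reads, 35 + and 1496 - hMeDIP reads, and 23 and 23 input reads. Its ratio was 13.1 in MeDIP and 25.6 in hMeDIP, but 1.13 at 600 mM and 0.726 at 800 mM. These examples were chosen for their strand balance after it was seen.

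Strand balance separated high bins by their signal in the other libraries. In the 2682 bins with under 10% of MeDIP reads on the weaker strand, summed reads were 6.40-fold over input in hMeDIP, 3.98-fold at 600 mM and 3.54-fold at 800 mM. In the 5428 bins with 40% or more on the weaker strand they were 3.67-fold in hMeDIP, 6.93-fold at 600 mM and 7.10-fold at 800 mM. The MeDIP fold, which chose the bins, moved little between these classes (8.29 and 7.29), and the median input was 6 reads in each. Correspondingly, 50.5% of the most one-sided bins were at 2-fold or more in the 600 mM eluate, against 83.5% of the balanced ones. For hMeDIP the shares went the other way, at 75.3% and 48.3%.

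**Figure D5:**
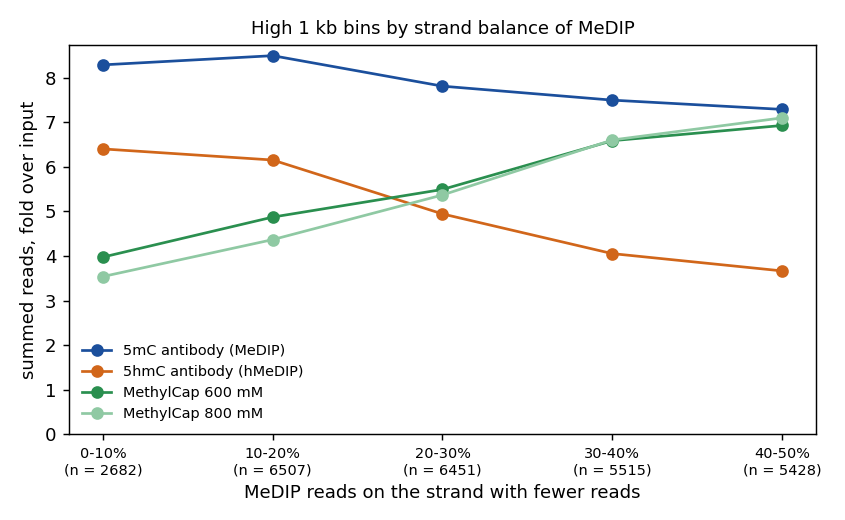
Summed reads as fold over input (y axis) in high 1 kb bins grouped by the percentage of MeDIP reads on the strand with fewer reads (x axis). From the most one-sided to the balanced class hMeDIP falls from 6.40 to 3.67, while the MethylCap eluates rise from 3.98 to 6.93 and from 3.54 to 7.10.

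A call on part of the reads carried over to the rest of the reads to different degrees. Bins of 1 kb called at 3-fold on + strand reads alone were 10.3-fold in those reads and 3.10-fold (3.08 to 3.12) in the - strand reads. When reads were instead parted by even and odd start positions, bins called on even positions were 9.82-fold there and 6.56-fold (6.53 to 6.59) on odd positions. The drop from the choosing reads to the others was thus larger between strands than between start positions. Of 1 kb bins, 14626 passed 3-fold on each strand and 38022 on even and on odd positions. At 100 kb the splits were close, at 2.38-fold on the - strand and 2.53-fold on odd positions for bins at 2-fold or more.

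At 10 kb, 25898 of 231061 bins (11.2%) were at 2-fold or more and 54014 (23.4%) at 0.5-fold or less. The high bins held 27.9% of MeDIP reads and 9.01% of input reads, and the low bins 7.93% and 26.5%. With the median bin set to 1, a shift of 0.30 on the log2 scale, 41117 bins were high and 32645 low, so that high bins went from 32.4% to 55.7% of the called ones. Which side had more bins thus depended on the scaling.

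Of the 10 highest 10 kb bins, chr12:114150001-114160000 was first, with 362 MeDIP and 21 input reads (20.04-fold; ratio without pseudocount 27.4, interval 17.7 to 44.9). It was 10.1-fold in hMeDIP, 23.5-fold at 600 mM and 22.4-fold at 800 mM. Next came chr4:151830001-151840000 with 399 and 27 reads (18.3-fold) and chr17:31040001-31050000 with 415 and 34 (15.9-fold). These bins were high in all 4 enriched libraries, as were 9 of the 10, the exception being the one-stranded bin on chromosome 14 described above. The share of all high 10 kb bins that were high in every enriched library was not counted. In 9 of the 10 the input was at or below the median of 68 reads, and this input divides the ratios of all libraries.

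The 10 lowest 10 kb bins, among those with at least 50 input reads, held 1 to 8 MeDIP reads and 101 to 222 input reads. All 10 had more input than the median of 68 reads, as the pseudocount keeps bins with fewer input reads from such low ratios. At chr13:23660001-23670000 there were 3 MeDIP, 149 input, 19 hMeDIP, 2 and 4 MethylCap reads. At chr1:59750001-59760000 there were 8, 222, 32, 14 and 9 in the same order. Both eluates and hMeDIP were at 0.418-fold or less in each of these 10 bins.

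Above 40 input reads the ratio was lower the higher the input. Input is also the denominator of the ratio, so counting error in the input alone gives a fall of this kind. Pearson's r of the log2 ratio with log2 input RPM was -0.286 over 10 kb bins and -0.087 over 100 kb bins. From bins with 40 to 59 input reads to those with 100 to 149, the median MeDIP count only went from 33 to 38 reads, while the share of low bins rose from 13.9% to 42.0%. Among 1281 bins with 150 or more input reads, 76.3% were low, with a median of 30 MeDIP reads. The 18020 bins with 20 to 39 input reads went the other way, with a median of 17 MeDIP reads and a median ratio of 0.899, against 1.03 at 40 to 59 input reads. With a flat background in place of the input, 20485 bins of 10 kb were high and 59194 low, against 25898 and 54014 with the input. That setting was chosen after the data were seen.

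At 100 kb, 1979 of 23492 bins (8.42%) were at 2-fold or more and 5166 (22.0%) at 0.5-fold or less. With the median bin at 1 these were 3381 and 2923. Runs of 10 or more adjacent bins held 38.9% of the low bins and 10.5% of the high ones. Low bins were more numerous, and among the 1979 lowest bins, as many as were high, the share was 9.65%. With the median bin at 1 it was 17.8% of low and 11.7% of high bins. The longest low run, chr14:88900001-98700000, spanned 98 bins, while with the median bin at 1 the longest low run of the genome was 42 bins. The run of 98 bins held 16658 MeDIP and 84817 input reads (0.313-fold, interval 0.307 to 0.318), and was 0.349-fold in hMeDIP, 0.173-fold at 600 mM and 0.171-fold at 800 mM. The longest high run, chr4:151600001-154000000, spanned 24 bins with 26918 MeDIP and 11847 input reads. It was 3.62-fold over input (3.539 to 3.696), 3.05-fold in hMeDIP and 4.48-fold in each eluate.

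Neighbouring bins resembled each other over megabases. Pearson's r of log2 ratios over 100 kb bins was 0.809 between adjacent bins (23350 pairs). It was 0.540 at 1000 kb, 0.191 at 5000 kb and still 0.105 at a distance of 10000 kb. Input RPM alone had an r of 0.593 between adjacent bins and of 0.153 at 1000 kb. These are descriptions across bins of 1 pair of libraries. Base composition along the chromosome was not measured here.

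High sites of different sizes were nested. Of the high 1 kb bins, 63.7% lay in 10 kb bins at 2-fold or more, which made up 11.2% of the 1 kb bins tested. Only 19 high 1 kb bins lay in 10 kb bins at 0.5-fold or less, although 519453 of the bins tested did. At the scale of 100 kb, 37.4% of high 1 kb bins were in bins at 2-fold or more and 49.3% in bins at 1 to 2-fold. The counts overlap by construction, because the reads of a small bin are part of the large one.

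Bins that went against their surroundings were few, in part because the reads of a small bin are part of the large one. Of 19560 bins of 10 kb in 100 kb bins at 2-fold or more, 93 (0.475%) were at 0.5-fold or less. Over all 10 kb bins tested that share was 23.4%. The 93 bins had a median of 94 input reads. Over these 93 bins hMeDIP was 0.745-fold, and the eluates were 0.578-fold and 0.610-fold, so the other libraries were less low than MeDIP (0.334-fold), which chose them. Of the 5 lowest, 3 lay in chr2:98500001-98600000, where the high value of the large bin came from chr2:98500001-98510000, with 1986 MeDIP and 1047 input reads. Conversely, 29 of 50569 bins of 10 kb in low 100 kb bins (0.0573%) were at 2-fold or more, against 11.2% of all 10 kb bins tested. Summed reads of these 29 bins were 2.88-fold over input at 600 mM, 3.001-fold at 800 mM and 1.64-fold in hMeDIP. The highest of them, chr9:59790001-59800000, held 126 MeDIP and 55 input reads (3.30-fold) in a 100 kb bin at 0.447-fold.

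The 10 highest 100 kb bins ranged from 5.21-fold to 6.24-fold. The first, chr4:151800001-151900000, held 1991 MeDIP and 501 input reads (6.24-fold; without pseudocount 6.33, interval 5.73 to 6.99), and was 3.98-fold in hMeDIP. Input was above the median of 670 reads in 2 of the 10, chr17:30800001-30900000 with 817 reads and chr9:3000001-3100000 with 1145. The latter, where the assembled sequence of chromosome 9 begins, held 4175 MeDIP reads (5.77-fold). It also had 1579 input reads with a 1 in column 4, and with those counted its ratio was 2.66.

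The 10 lowest 100 kb bins were nearly empty in every enriched library. They held 2 to 7 MeDIP reads, 3 to 18 hMeDIP reads, 0 to 11 reads at 600 mM and 0 to 10 at 800 mM, while input had 205 to 398 reads, below the median of 670. Of the 10, 6 lay between chr4:111800001 and chr4:113000000. There chr4:111900001-112000000 had 2 MeDIP, 4 hMeDIP and no MethylCap reads against 398 input reads (0.028-fold; upper end of the interval without pseudocount 0.029). A lack of modified cytosine and a lack of this sequence in the gene-trap clones cannot be told apart in these libraries, since copy number was not measured. The 10 lowest 10 kb bins held 9 to 56 hMeDIP reads, but that list needed at least 50 input reads and its bins held 101 to 222. The lists thus differ in input density, and their hMeDIP counts cannot be compared directly.

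Chromosomes differed less than the regions within them. Shares of reads relative to input went from 0.819-fold on chromosome 14 (0.816 to 0.822) to 1.16-fold on chromosome 5 (1.158 to 1.165), with 9 autosomes above 1 and 10 below. Only 3.03% of the variance of log2 ratios over 100 kb bins lay between autosomes and 97.0% within them. Within an autosome the 95th percentile of 100 kb bins was 4.84 to 8.92 times the 5th, the largest span being that of chromosome 4 (0.338 to 3.01).

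Over all 10 kb bins, the other libraries followed the MeDIP ratio step by step. From bins under 0.25-fold to bins at 4-fold or more, mean hMeDIP rose from 0.376 to 2.72 times its mean over the bins tested, and the 600 mM eluate from 0.167 to 4.17 times. Input fell over the same classes from 1.34 to 0.667 times its mean, as the ratio was used to sort the bins. The rise of the other libraries is given in their own RPM, without division by input.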

How the data were processed

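Per the submitters' processing notes, BWA 0.5.8 was used and the genome build was mm9. The deposited files list 1 read of 35 bp per line with a read count of 1 in every line, and among those kept each position of a strand occurs once at most. The sources used here do not say how duplicates were handled. Reads with a 1 in column 4 and reads off chromosomes 1 to 19 (2.16% of MeDIP and 4.71% of input reads) were left out.

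Read midpoints were counted in bins with numpy 2.4.6, scaled to RPM over the reads kept, and given a pseudocount of 0.5 RPM, which pulls ratios of sparse bins toward 1. A ratio of 3 was the threshold at 1 kb, and 2 and 0.5 at 10 and 100 kb, with at least 20 and 200 input reads. Intervals are Clopper-Pearson, on the conditional binomial for ratios (scipy 1.17.1). Named bins were the 10 highest at each size and the 10 lowest at 10 and 100 kb. The 1 kb ones needed 20 MeDIP and 5 input reads, the lowest 10 kb ones 50 input reads. The longest runs of high and low bins were named too. Calls and intervals were tried on simulated counts, drawn independently in each bin and without strand skew. The outcome is not given here and does not cover reads that cluster or are skewed to a strand.

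The comparison, bin sizes and lists were chosen with earlier results of these data known. The strand analysis, the splits of the reads and the flat background were added after seeing the data. Alternatives covered the reads kept, scaling, pseudocount, bin grid, thresholds and filters. No mm9 genome or annotation was used here, so bins carry no gene names, CpG content or sequence.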

Additional observations from a re-analysis of the deposited data

Results flagged for a closer look

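Bins under the minimum of input reads were left out of the counts at 10 and 100 kb, and some of them carried MeDIP signal above the input. At 10 kb, 230 of 6587 such bins were at 3-fold or more, which is 3.49% of them and the same percentage as among the bins tested. They held 10416 MeDIP reads against 2497 input reads. The 600 mM and 800 mM eluates were at 3-fold or more in 159 and 165 of them, and hMeDIP in 50. These folds are taken over the same few input reads (median 11 a bin) that entered the choice. The shares of these libraries over all bins under the minimum are not given here. At 100 kb, 12 of 433 bins under the minimum were at 3-fold or more, which is 2.77% of them, against 1.55% of the bins tested. Of these 12, hMeDIP was at 3-fold or more in 9 and each eluate in 7, with the same limit (median 36 input reads a bin).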

How the results depend on the processing

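Of 63 alternative values of 16 results, 33 stayed within the margin set (1.5 times for a count) and 30 moved beyond it. A change of direction was not scored for these results. With the median bin at 1, high bins outnumbered low bins at 10 and 100 kb, the reverse of the main setting. Results at 1 kb depended most on the settings. The 61944 high 1 kb bins became 93682 with the median bin at 1, 207272 with a pseudocount of 0.1 RPM, 187543 at 2-fold, 11752 at 5-fold and 26583 with at least 5 input reads. Requiring the threshold on each strand left 14626, and on even and odd start positions 38022. Their share of MeDIP reads (17.2%) was 16.9% with all reads, 22.6% with the median bin at 1, 34.5% with the smaller pseudocount, 17.3% on a shifted grid, 35.004% at 2-fold, 5.36% at 5-fold and 8.88% with at least 5 input reads. With the median bin at 1, high and low bins numbered 41117 and 32645 at 10 kb and 3381 and 2923 at 100 kb, and on each strand 13924 and 35122 at 10 kb. Input in its densest 10% of 10 kb bins was 17.1% with all reads and 17.5% after thinning, and the autosomes spanned 0.814 to 1.17 with all reads. The share of skewed windows (66.6%) was 67.6% in the bin alone, 71.7% with 40 reads or more, 84.2% in bins at 5-fold or more and 53.9% after thinning each window to 20 reads. The share of low 100 kb bins in runs of 10 or more (38.9%) was 17.8% with the median bin at 1 and 9.65% for as many lowest bins as high ones. With all reads, the ratio without pseudocount stayed within its interval in 48 named bins and left it in 2, whose ratios with pseudocount were 2.66 (chr9:3000001-3100000) and 4.70 (chr7:53300001-53400000). The settings on strand, start position, skew and runs and the flat background were chosen after seeing the data. No paired analysis was possible because each group holds 1 library. Depth limits single 1 kb bins most, with a median of 7 input reads.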

Other observations

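Strand skew in MeDIP was not limited to high bins. Where the ratio was between 0.5 and 3 and input reached 5 reads in the 1 kb bin, 46.0% of 149487 windows with 20 or more MeDIP reads had an interval that excluded 50%, against 2.35% of 297620 windows with 20 or more input reads. Windows with that many MeDIP reads were rare around bins at 0.5-fold or less (1310), and 65.8% of them were skewed. These windows also count reads of the 500 bp on each side, and the bin alone was checked only for high bins. In high 10 kb bins the interval excluded 50% in 51.5% of 25898 bins for MeDIP, 53.6% for hMeDIP, 2.92% for input and 2.61% for the 600 mM eluate. MeDIP and hMeDIP favoured the same strand in 9202 of the 9339 high 10 kb bins in which both were skewed.

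The distance from a + read to a - read with the most pairs was 185 bp in MeDIP and 190 bp in input, but the shapes differed. In input the pairs rose to 2.03 times their number at 900 to 1000 bp and averaged 1.24 times over 100 to 300 bp, a sharp peak. In MeDIP the maximum was 1.85 times and the average over 100 to 300 bp was 1.77 times, a broad plateau. Bins of 10 kb with 20 or more input reads and no MeDIP read numbered 206, of which 65 lay on chromosome 4. That chromosome holds 6.13% of input reads. How many of the 65 lie in the stretch of nearly empty bins on chromosome 4 described above was not counted. The 206 bins had a median of 31 input reads, and hMeDIP had no read either in 88 of them.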
